A study of Mus musculus with 12 samples.

Results

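Potassium channel expression in mouse thymus is described here for 6 genes: the 2-pore channels Kcnk2, Kcnk1, Kcnk5 and Kcnk6, the voltage-gated channel Kcna3 and the calcium-activated channel Kcnn4. Members were all probe sets that the platform's gene table assigned to one of these symbols, which gave 9 of the 45101 probe sets on the array, and 6 of 18193 named genes. Kcnk2 was chosen by its difference between gonadal males and females in these same arrays, and the other 5 were added for their channel function with those results known. Values that compare the gonadal sexes are therefore a description for all 6 genes, without a test. Comparisons of the sex chromosome complements, and of the Sry difference between complements, were not used in the choice and were tested.

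Thymus total RNA came from mice 7 to 8 weeks old, in 4 groups of 3 biological replicates each. XY-sry mice were gonadal males and XXsry mice were gonadal males, whereas XY- mice and XX mice were gonadal females. In this nomenclature Y- denotes a Y chromosome without its own Sry, the gene that starts testis development, and sry denotes Sry supplied as a transgene. The labels give neither the strain nor the site of the transgene. Every male carried the transgene and no female did, so an effect of Sry itself and an effect of the testis cannot be told apart. The labels checked out on every array. Xist, the RNA of the inactive X, lay between 3.41 and 4.19 on the log2 scale in the arrays of the XY- complement and between 11.10 and 11.63 in those of the XX complement. The Sry probe set lay between 6.74 and 7.20 in males and between 5.23 and 5.65 in females. All 8 thymocyte markers in the table, among them Rag1, Ptcra and Cd8a, were above the low-value filter. Values throughout are the authors' log2 RMA values, for which 1 unit is a doubling. The number of arrays limits precision.

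Potassium channels let K+ leave the cell and so set the membrane potential. In T cells the Kcna3 product (Kv1.3) and the Kcnn4 product (KCa3.1) keep the membrane negative, which sustains calcium entry through store-operated channels after antigen receptor signalling. The 2-pore channels carry a background K+ leak: the Kcnk2 product (TREK-1) opens on membrane stretch, warmth and polyunsaturated fatty acids, the Kcnk5 product (TASK-2) responds to pH and cell volume, and the Kcnk1 and Kcnk6 products (TWIK-1 and TWIK-2) pass weak leak currents. The TWIK-2 channel has been described as a K+ efflux route in macrophages.

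Kcnk2 is a minus-strand gene at chr1:189207930-189402782 in GRCm38.p6. RefSeq gives it 4 start windows of 300 bases, most of each lying before a transcript start, while its single probe set cannot tell the starts apart. None of the 4 windows reaches the gene's upstream end, at 189402782, so the bases there were not searched. The most upstream and the most downstream window are shown because Kcnk2 is the gene the results turn on, and they differ in GC content. The most upstream one, with a GC content of 43.0%, holds AGAACA, the half-site of the androgen and glucocorticoid receptors, given in capitals. The most downstream one has a GC content of 68.7%, in a GC-rich stretch, and no motif searched.
Kcnk2 upstream start, chr1:189402224-189402523, minus strand: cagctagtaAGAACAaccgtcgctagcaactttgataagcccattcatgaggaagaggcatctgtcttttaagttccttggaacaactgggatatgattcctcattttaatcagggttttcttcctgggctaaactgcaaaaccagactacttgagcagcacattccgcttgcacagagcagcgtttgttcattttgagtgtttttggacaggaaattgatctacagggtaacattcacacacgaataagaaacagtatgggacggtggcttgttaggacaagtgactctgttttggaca
Kcnk2 downstream start, chr1:189343304-189343603, minus strand: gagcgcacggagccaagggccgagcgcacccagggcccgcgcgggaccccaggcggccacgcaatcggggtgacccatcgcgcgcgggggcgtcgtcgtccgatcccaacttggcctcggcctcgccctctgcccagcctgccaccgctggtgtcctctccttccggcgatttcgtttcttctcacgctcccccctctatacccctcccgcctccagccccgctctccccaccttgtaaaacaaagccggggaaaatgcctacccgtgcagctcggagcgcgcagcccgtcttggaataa
Motifs were searched on both strands. AGAACA occurred in 19% of 32851 such windows in RefSeq, and in 1 of the 4 Kcnk2 windows. The oestrogen receptor half-site AGGTCA occurred in 16.3% of all windows and in none of the 4. The full palindromes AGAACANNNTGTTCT and GGTCANNNTGACC occurred in 0.00913% and 0.07% of all windows and in none of the 4. The other members with windows in the table, Kcnk1, Kcnk5, Kcna3 and Kcnn4, had 1 window each, with none of these motifs. A match is only a run of letters and does not show that a receptor binds.

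Kcnk2 was higher in every male thymus than in every female thymus. Its log2 values were 6.34, 6.18 and 6.11 in XY-sry males and 6.49, 6.29 and 6.27 in XXsry males, against 5.51, 5.19 and 5.45 in XY- females and 5.33, 5.41 and 5.33 in XX females. The lowest male array lay 0.60 above the highest female array, so the sexes did not overlap. Of the 17925 probe sets tested, 2.28% had all 6 male arrays above all 6 female arrays, and since this contrast had led to the choice of Kcnk2, nothing is read from that share. The male minus female difference averaged over complement was 0.91 ± 0.07 (SE), a fold of 1.88. A larger positive difference was seen in 9 tested probe sets, and a larger one in either direction in 30. Since the choice used this contrast, nothing is read from that rank either. The Kcnk2 difference was 0.83 ± 0.09 in XY-sry minus XY- thymus, a fold of 1.77, and 0.99 ± 0.09 in XXsry minus XX thymus, a fold of 1.99. In the comparison of XY-sry males with XX females, which differ in both factors, the difference was 0.85 ± 0.09. The females' own values exceeded the filter of 5, so Kcnk2 did not owe its place among the tested probe sets to the males. In bulk RNA, more cells of a type and more RNA per cell cannot be told apart. The mean log2 level of 11 cortical epithelium markers also lay higher in males (8.89 to 8.99, against 8.72 to 8.86 in females). That gap is narrow, and the list holds Isl1, which differed by 0.69 and is described below as near Kcnk2 in pattern. No mean was taken without Isl1. The summed linear intensities of the 11 markers, described further on with the other cell types, overlapped between the sexes. The part of these markers in the Kcnk2 difference was not tested.

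**Figure D1:**
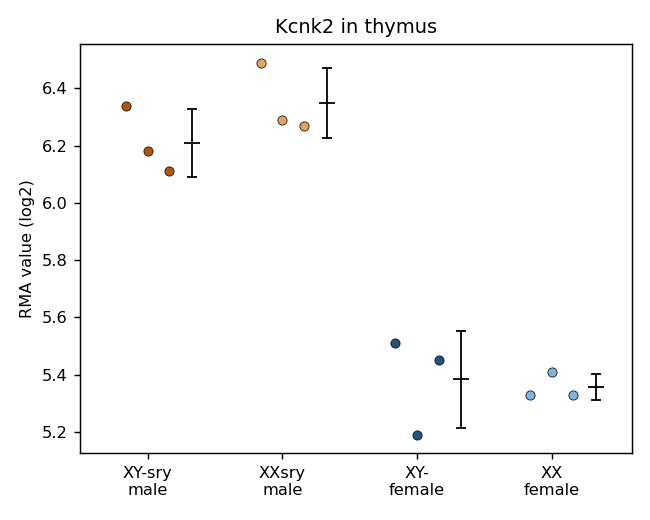
Kcnk2 log2 RMA values (y axis) in the 4 groups (x axis); points are arrays, and the bar beside each group is the mean ± SD of 3 arrays. The 6 male arrays sit between 6.11 and 6.49 and the 6 female arrays between 5.19 and 5.51.

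The order of the Kcnk2 group means was XXsry males at 6.35 ± 0.12, XY-sry males at 6.21 ± 0.12, XY- females at 5.38 ± 0.17 and XX females at 5.36 ± 0.05 (SD, n = 3 each). The arrays of same-sex neighbours overlapped. The tests of the complement bore on those same-sex neighbours. Kcnk2 differed by -0.14 between XY-sry and XXsry males (95% interval -0.34 to 0.06; limma adjusted p = 0.786). Between XY- and XX females the difference was 0.03 (95% interval -0.17 to 0.23; limma adjusted p = 0.946). Averaged over gonadal sex the XY- minus XX difference was -0.06 (95% interval -0.20 to 0.09; limma adjusted p = 0.998). The Sry difference in the XY- complement minus that in the XX complement was -0.17 (95% interval -0.45 to 0.12; limma adjusted p = 0.639). The intervals of the complement effect in males, in females and on average reach at most 0.34 in size, and that of the interaction 0.45.

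Across all members, none of the 5 probe sets above the filter passed the threshold (limma, adjusted p under 0.05) for the averaged complement effect, where 0.0893% of all tested probe sets passed. None of the 5 passed for the complement effect in females (0.0781% of all) or in males (0.128% of all), or for the interaction (1.29% of all). With no adjustment, 0, 0, 0 and 1 of the 5 had p under 0.05 in these comparisons. In the fit without the filter, all 9 probe sets gave 0 calls, and 0, 1, 0 and 1 had an unadjusted p under 0.05. These shares are too small for 5 or 9 probe sets to be read against them.

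**Figure D2:**
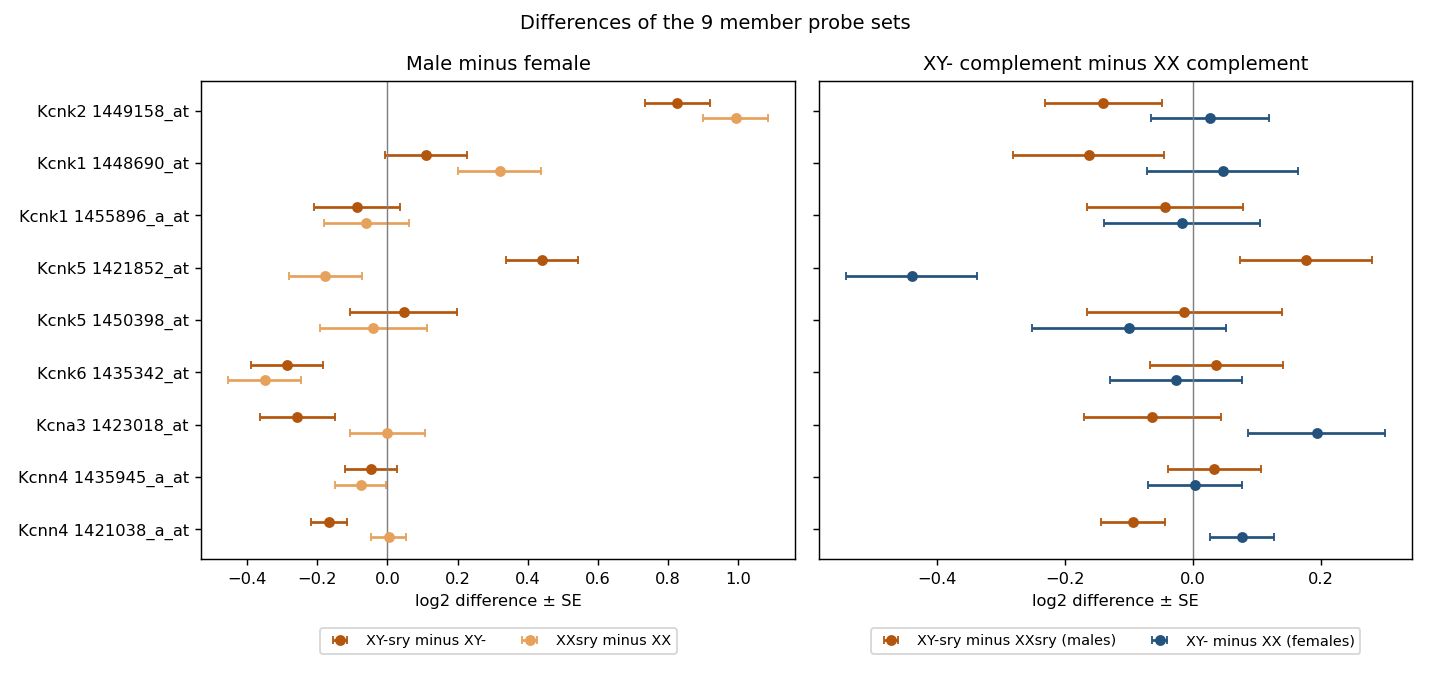
Log2 differences ± SE (x axis) of the 9 probe sets (y axis), males minus females within each complement on the left and XY- minus XX complement within each sex on the right. Kcnk2, which was chosen by its sex difference, has the largest differences on the left, 0.83 and 0.99. On the right the point farthest from 0 is Kcnk5 in females at -0.44.

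Kcnk6, at chr7:29221928-29232522 in GRCm38.p6, had lower means in both male groups than in either female group. Its values were 6.35, 6.42 and 6.47 in XY-sry males and 6.61, 6.13 and 6.39 in XXsry males, against 6.60, 6.78 and 6.72 in XY- females and 6.83, 6.64 and 6.71 in XX females. The sexes met at 1 point, where XXsry replicate 1 at 6.61 lay just above XY- replicate 1 at 6.60. The male minus female difference was -0.32 ± 0.07 (SE) on average, at -0.29 ± 0.10 in the XY- complement and -0.35 ± 0.10 in the XX complement. Without XXsry replicate 2 the value in the XX complement was -0.23, and without XXsry replicate 1 it was -0.47. The complement made no detectable difference to Kcnk6, with 0.04 in males (95% interval -0.19 to 0.26; limma adjusted p = 0.976) and -0.03 in females (95% interval -0.25 to 0.20; limma adjusted p = 0.951).

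Kcnk5 gave the largest complement difference among the members, in females, although its probe sets lay below the filter. The gene lies at chr14:20140057-20181782 in GRCm38.p6. Its brighter probe set, 1421852_at, read 4.36, 4.37 and 4.27 in XY-sry males and 3.93, 4.36 and 4.18 in XXsry males, against 3.88, 3.75 and 4.05 in XY- females and 4.37, 4.33 and 4.30 in XX females. XY- females were thus the low group, below every XX female array, while 1 XXsry array fell among them. The male minus female difference was 0.44 ± 0.10 (SE) in the XY- complement and -0.18 ± 0.10 in the XX complement. In the XY- complement it was 0.28 with the actin covariate. Among the probe sets tested, 8.86% had all XY- female arrays below all XX female arrays. In the fit without the filter, the XY- minus XX difference in females was -0.44 ± 0.10 (SE; limma adjusted p = 0.308). In males it was 0.18 ± 0.10 (adjusted p = 0.826), at 0.06 without XXsry replicate 1, 0.28 without XXsry replicate 2 and 0.12 with the actin covariate. The interaction, 0.62 ± 0.15 (limma adjusted p = 0.0999), did not pass. It passed with array weights (0.61, adjusted p = 0.0063), as did the female difference (-0.46, adjusted p = 0.00517), and the interaction passed without XY- replicate 3 (0.70, adjusted p = 0.0397). The second probe set, 1450398_at, did not share the pattern, with -0.10 in females, -0.01 in males and an interaction of 0.09 ± 0.22. XY- females also had the lowest mean actin 3' minus 5' signal difference, at 0.63. It is a sign of RNA quality, with larger values marking more degraded RNA. The means were 0.79, 0.73 and 0.73 in XY-sry males, XXsry males and XX females. The low mean came mostly from XY- replicate 2 at 0.51, while replicates 1 and 3, at 0.69 and 0.68, lay within the XX range of 0.66 to 0.77. With the actin signal difference as a covariate the Kcnk5 difference in females was -0.34. The part of RNA quality in this pattern was not otherwise tested.

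Kcnk1, at chr8:125993655-126030685 in GRCm38.p6, gave low values, below the filter in both probe sets. The brighter one, 1448690_at, read 3.29, 3.12 and 3.34 in XY-sry males and 3.56, 3.39 and 3.29 in XXsry males, against 3.25, 2.97 and 3.20 in XY- females and 2.83, 3.24 and 3.21 in XX females. The sexes overlapped, and the male minus female difference was 0.22 ± 0.08 (SE). The other, 1455896_a_at, differed by -0.07 ± 0.09 and lay between 2.24 and 2.77 over all 12 arrays. Both lay below the median of every array, which was between 4.02 and 4.10.

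Kcna3 and Kcnn4 showed smaller differences between the sexes than Kcnk2, which had been chosen by that difference. Kcna3, at chr3:107036162-107038129 in GRCm38.p6, read 7.02, 7.29 and 7.43 in XY-sry males and 7.33, 7.39 and 7.21 in XXsry males, against 7.42, 7.71 and 7.38 in XY- females and 7.35, 7.25 and 7.33 in XX females. XY- females had the highest mean, 7.50 ± 0.18, and the other groups lay at 7.31 ± 0.09 in XXsry males, 7.31 ± 0.05 in XX females and 7.25 ± 0.21 in XY-sry males (SD, n = 3 each). The lowest XY- female array, at 7.38, lay just above the highest XX female array, at 7.35, and all other pairs of groups overlapped. How many of all probe sets split that way was not counted, so nothing is read from it. The male minus female difference was -0.26 ± 0.11 (SE) in the XY- complement and 0.00 ± 0.11 in the XX complement, and the difference between these values, -0.26, did not pass (95% interval -0.59 to 0.08; limma adjusted p = 0.512). With the actin covariate both the difference in the XY- complement and the difference between complements were -0.08, and without XY-sry replicate 1 both were -0.14. Between XY- and XX females Kcna3 differed by 0.19 (95% interval -0.04 to 0.43; limma adjusted p = 0.563). That Kcna3 value was 0.09 without XY- replicate 2, 0.08 under the actin covariate and 0.11 under array weights.

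Kcnn4, at chr7:24369826-24385212 in GRCm38.p6, had the narrowest range of the members. Its brighter probe set, 1435945_a_at, read 10.06, 10.00 and 10.12 in XY-sry males and 10.14, 9.89 and 10.05 in XXsry males, against 10.14, 10.03 and 10.15 in XY- females and 10.15, 10.00 and 10.16 in XX females. All 4 groups overlapped, and the male minus female difference was -0.06 ± 0.05 (SE), at -0.03 without XXsry replicate 2 and -0.11 with the actin covariate. In the XY- complement this Kcnn4 difference was -0.05 ± 0.07, and -0.15 with the actin covariate. The second probe set, 1421038_a_at, read 8.28, 8.38 and 8.37 in XY-sry males and 8.50, 8.53 and 8.50 in XY- females, a difference of -0.17 ± 0.05 with no overlap. Of all tested probe sets, 9.39% lay lower without overlap in that comparison. In the XX complement it read 8.46, 8.41 and 8.44 in XXsry males, against 8.41, 8.39 and 8.50 in XX females, which overlapped at a difference of 0.00 ± 0.05. The interaction, -0.17 ± 0.07, was the 1 value above the filter whose p was small before adjustment, and did not pass (limma adjusted p = 0.321). In the brighter probe set the interaction was 0.03 ± 0.10, so the 2 probe sets of Kcnn4 differed in sign. The complement difference of the brighter one was 0.02 (95% interval -0.09 to 0.13; limma adjusted p = 0.998).

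**Figure D3:**
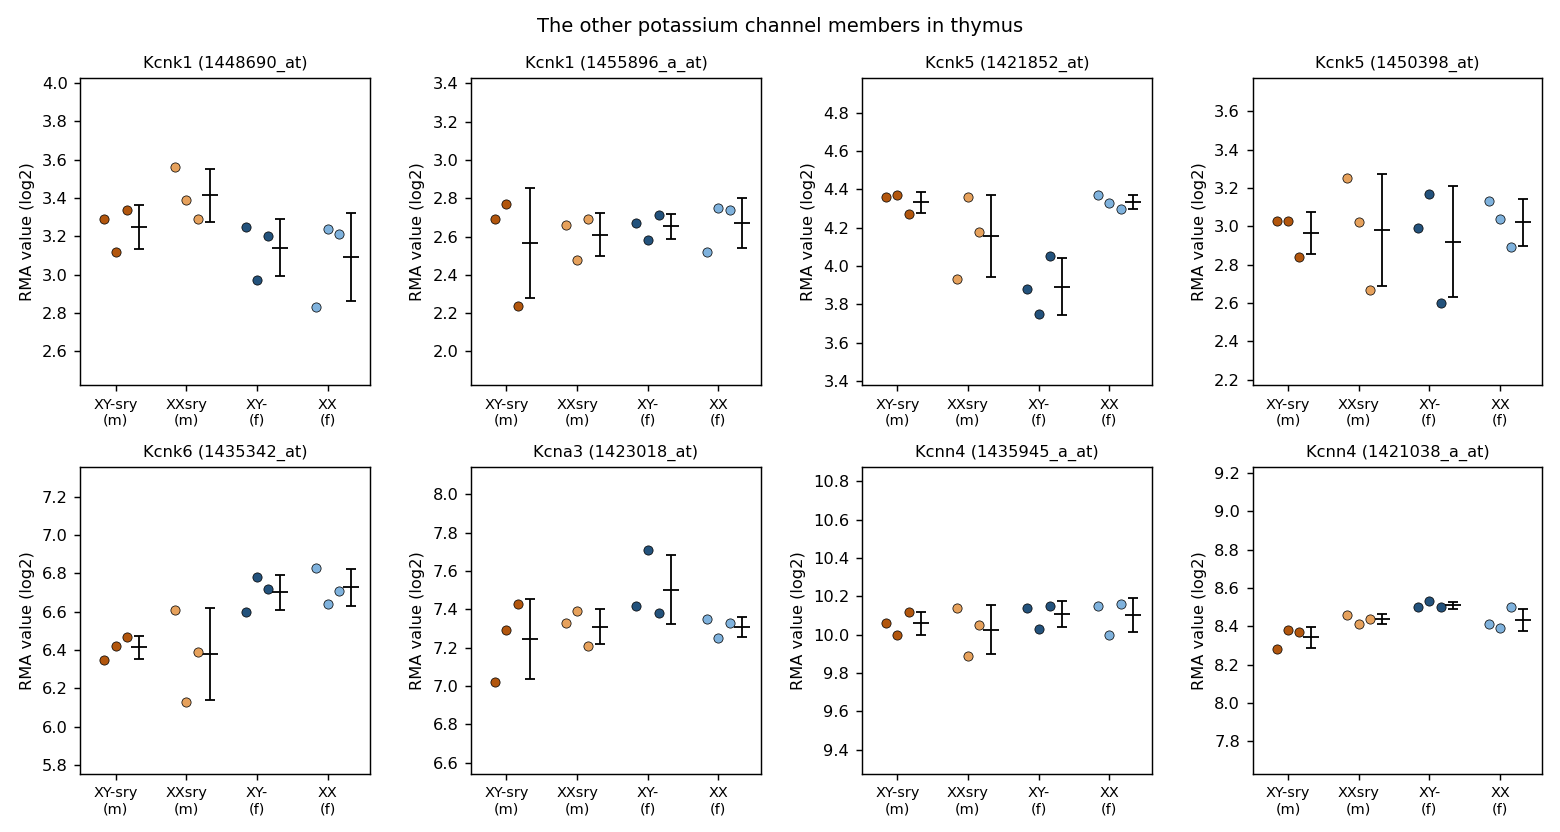
Log2 RMA values (y axis, the same span in each panel) of the other 8 member probe sets in the 4 groups, with males (m) left of females (f); points are arrays and bars are mean ± SD of 3 arrays. Kcnk6 sits lower in the male groups, and XY- females are the low group for Kcnk5 probe set 1421852_at.

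Other potassium channel genes were taken from lists of 2-pore, voltage-gated, calcium- or sodium-activated and inward rectifier channels and channel partners, which held 98 genes besides the members. The table had 83 of them, and 18 passed the filter by the gene's brightest probe set. None of the 8 further 2-pore channels in the table, such as Kcnk3, Kcnk10 and Kcnk13, passed it. For gonadal sex, 3 of the 18 rose in males and 0 fell (limma, adjusted p under 0.05), where 7.17% of the 9496 genes tested passed, 4.57% upward and 2.6% downward. The median difference of the 18 was 0.00, against 0.02 over all genes tested. Calls were 4 of 18 in XY-sry against XY- thymus (7.26% of all genes), 1 of 18 in XXsry against XX (0.99%) and 2 of 18 in XY-sry against XX (1.47%). The counts are small, and 1 gene moves each share by more than 5 percentage points. The lists were chosen with earlier results of these data known, so the counts and the p-values of the genes below are a description.

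Kcnj15, which encodes the inward rectifier Kir4.2, rose in males of both complements. It read 6.76, 6.56 and 6.65 in XY-sry males and 6.88, 6.72 and 6.69 in XXsry males, against 6.04, 6.18 and 6.38 in XY- females and 6.19, 6.16 and 6.20 in XX females. The sexes did not overlap. The male minus female difference was 0.52 ± 0.06 (SE; limma adjusted p = 0.000942), at 0.46 in the XY- complement (adjusted p = 0.011) and 0.58 in the XX complement (adjusted p = 0.011). Its other 2 probe sets lay below the filter and differed by -0.07 and 0.10.

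Kcnq3, a subunit of the M-current channels of neurons, rose in males by 0.66 ± 0.12 (SE; limma adjusted p = 0.00826). Values were 6.13, 6.03 and 6.23 in XY-sry males and 6.10, 5.59 and 6.02 in XXsry males, against 4.98, 5.70 and 5.42 in XY- females and 5.33, 5.39 and 5.31 in XX females. The sexes overlapped through XXsry replicate 2 and XY- replicate 2. The difference passed in the XY- complement (0.76, adjusted p = 0.0169) and not in the XX complement (0.56, adjusted p = 0.189), and the difference between these did not pass (adjusted p = 0.768). A second Kcnq3 probe set below the filter differed by 0.10.

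Abcc9, the sulphonylurea receptor subunit that joins inward rectifiers into ATP-sensitive channels, rose in males by 0.41 ± 0.07 (SE; limma adjusted p = 0.00958). It read 5.48, 5.27 and 5.60 in XY-sry males and 5.80, 5.61 and 5.36 in XXsry males, against 5.02, 5.08 and 5.14 in XY- females and 5.16, 5.11 and 5.15 in XX females. The sexes did not overlap, and 2 further probe sets below the filter differed by 0.33 and 0.22 in the same direction. Kcnma1, the large-conductance calcium-activated channel, fell by 0.25 in XY-sry against XY- thymus (limma adjusted p = 0.0396) and differed by 0.00 in the XX complement. Its other 4 probe sets lay below the filter and differed by 0.08, -0.14, -0.07 and -0.05 in the XY- complement. The Kcnma1 call was lost in 5 of the alternatives, among them the fit without the filter (adjusted p = 0.0983) and the fit of the compared groups only (adjusted p = 0.102). It was also lost without XY-sry replicate 1 or 3, any XY- replicate, or replicate 2 of XXsry or of XX, with the adjusted p reaching 0.137.

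**Figure D4:**
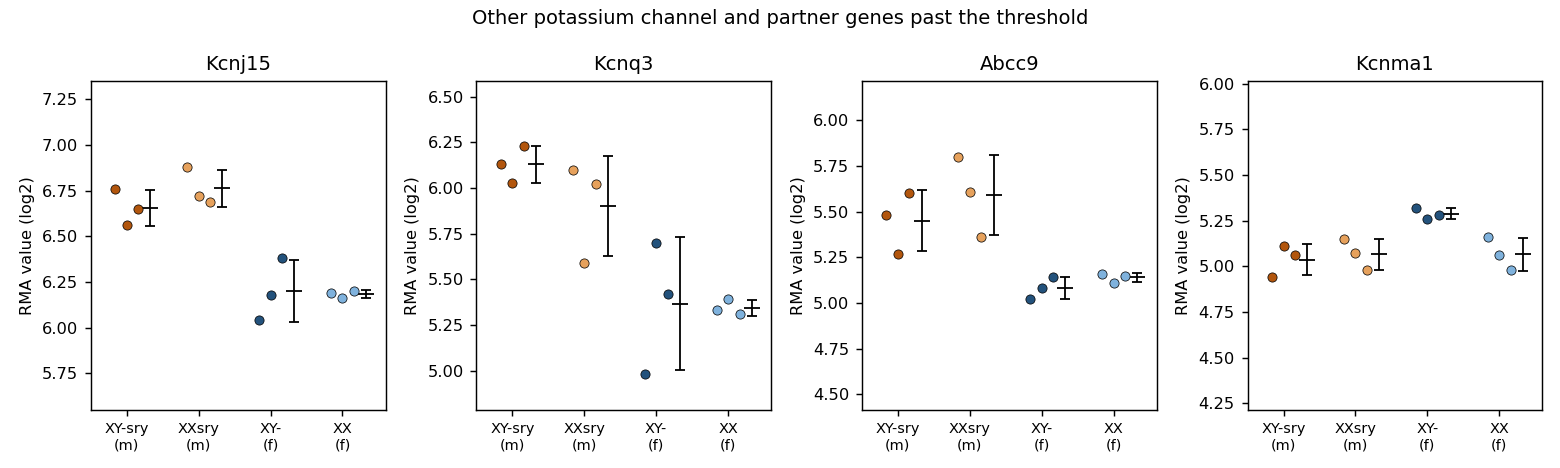
Log2 RMA values (y axis, the same span in each panel) of the 4 other potassium channel and partner genes past the threshold, by group, with males (m) left of females (f); points are arrays and bars are mean ± SD of 3 arrays. Kcnj15 and Abcc9 have every male array above every female array, Kcnq3 overlaps, and Kcnma1 is highest in XY- females.

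Kcnj15 was among the brightest genes of its list. Kcnma1, the only gene of its list above the filter, averaged 5.11, near the filter of 5. The brightest genes besides these, Kcna2, Kcnh2, Kcnj11, Nme2 and Trim27, did not pass in any comparison. Kcna2, a voltage-gated relative of Kcna3, differed by -0.23 ± 0.09 (SE) between males and females (limma adjusted p = 0.142). Kcnh2, the cardiac repolarisation channel, differed by 0.01, and Kcnj11, the pore of ATP-sensitive channels, by -0.05. Nme2 and Trim27, which act on KCa3.1 activity in opposite directions, differed by 0.05 and 0.03. For the averaged complement effect 0 of the 18 passed (limma), with 0 at an unadjusted p under 0.05, where 0.0737% of all genes tested passed. In females and in males 0 passed (0.0632% and 0.0737% of all genes), with 1 and 1 at an unadjusted p under 0.05. For the interaction 0 passed (0.537% of all genes), with 2 at that level.

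Calcium entry and ion balance genes stand downstream of and beside these channels. Of 22 calcium entry genes above the filter, 2 rose in males and 0 fell, with a median of 0.02 against 0.02 over all genes. That is 9.09% of the list, near the 7.17% of all 9496 genes tested that passed, so nothing is read from the count. The lists were chosen with earlier results of these data known, so the values below are a description. Atp2a2, the pump that refills the endoplasmic reticulum with calcium, rose by 0.17 ± 0.04 (SE; limma adjusted p = 0.0359). Of its 5 probe sets above the filter 3 passed, and all 5 differed upward. Stimate, which promotes STIM1 activation at junctions of the reticulum and the plasma membrane, rose by 0.20 ± 0.05 (adjusted p = 0.032). A second Stimate probe set, below the filter, differed by 0.01. Both calls were lost in the fit without the filter (adjusted p = 0.11 for Atp2a2 and 0.0837 for Stimate), and that of Stimate also with the actin covariate (adjusted p = 0.0727) and the intensity trend (adjusted p = 0.0537). Leaving out 1 array ended the Atp2a2 call for 9 of the 12 arrays and the Stimate call for 6, with adjusted p up to 0.0832 for Atp2a2 and 0.082 for Stimate.

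Atp2b1, a plasma membrane calcium pump, fell by 0.39 ± 0.08 (SE) in XY-sry against XY- thymus (limma adjusted p = 0.014). Its call was lost with the actin covariate (-0.17, adjusted p = 0.271), with only those groups in the fit (adjusted p = 0.0816) and without XY-sry replicate 1 (adjusted p = 0.0591). A second Atp2b1 probe set above the filter differed by 0.10 (adjusted p = 0.583), and another Atp2b1 probe set, below the filter, differed by -0.96 in the direction of the first, so the probe sets disagree. Nfatc3, a transcription factor that calcium signals activate, differed by 0.09 between males and females (adjusted p = 0.238). None of 10 ion balance genes passed by the brightest probe set (limma), with 2 at an unadjusted p under 0.05 for gonadal sex. For gonadal sex 7.17% of all genes tested passed, too small a share to read 10 genes against. They include the volume-regulation gene Clns1a at 0.05 and the sodium pump subunit Atp1b3 at 0.03. For Clns1a a dimmer probe set differed by -0.24 (adjusted p = 0.0364), against the direction of the brightest.

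The genes nearest to Kcnk2 in pattern were found by the root mean square difference of log2 values over the 12 arrays, each probe set centred on its own mean. They were Cyp1b1 (0.125), Nqo1 (0.138), Isl1 (0.147), Slc46a2 (0.156) and Ltbp3 (0.176), where the median over 15765 tested probe sets with 1 gene symbol was 0.468. Cyp1b1 is a cytochrome P450 that oxidises oestrogens and other substrates, Nqo1 a quinone reductase, Isl1 a homeobox transcription factor, Slc46a2 a solute carrier of thymic stroma and Ltbp3 a binding protein of latent TGF-beta. Like Kcnk2, all 5 had every male array above every female array, which the choice by pattern brings with it. Cyp1b1 averaged 5.96 in XY-sry and 6.13 in XXsry males, against 5.31 in XY- and 5.30 in XX females. Slc46a2 averaged 8.29 in XY-sry and 8.38 in XXsry males, against 7.61 in XY- and 7.59 in XX females.

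Some markers of cell types in the dissected tissue moved with gonadal sex as well. Over all 9496 genes tested, 4.57% rose in males and 2.6% fell, and 1 gene of a short list is not read against these shares. The marker lists were chosen with earlier results of these data known, so their counts and p-values are a description. Of 11 cortical epithelium markers 3 rose in males (Isl1, Dll4 and Cxcl12) and 0 fell. Their summed linear intensity ranged from 13557 to 14740 in males and from 13389 to 13915 in females. Isl1 was also among the genes nearest to Kcnk2. Foxn1, the defining transcription factor of thymic epithelium, differed by 0.22 and did not pass (limma adjusted p = 0.0657). Of 8 medullary epithelium markers 0 rose and 1 fell (Krt17), with sums of 1630 to 1849 in males and 1683 to 2078 in females. Of 4 markers of parathyroid and thyroid tissue on the array, Pth and Chga (2) rose, with sums of 149.7 to 259.5 in males and 86.4 to 153.9 in females. Casr and the thyroid gene Tg lay below the filter.

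Among lymphocyte markers most that passed fell in males. Here too the shares over all genes were 4.57% rising and 2.6% falling. The lists were chosen with earlier results known, so the counts and p-values are a description. Of 7 mature thymocyte markers 6 fell in males and 0 rose, with sums of 1244 to 1391 in males and 1657 to 2084 in females. Of 9 innate and effector lymphocyte markers 6 fell, led by the chemokine receptors Cxcr6 (-1.49; limma adjusted p = 3.01e-05) and Cxcr3 (-1.14; adjusted p = 3.52e-05), and 1 rose, the granzyme Gzma (0.20; adjusted p = 0.036), with sums of 1053 to 1167 in males and 1230 to 1413 in females, and Zbtb16 and Tbx21 below the filter. Of 9 myeloid markers 0 passed (limma; 4 at an unadjusted p under 0.05), with sums of 2514 to 3214 in males and 3084 to 4325 in females, and Itgam and Xcr1 below the filter. Of 6 B cell markers 3 fell and 0 rose, with sums of 3698 to 5474 in males and 4924 to 7336 in females, and Pax5 below the filter. Of 7 fibroblast markers Lum and Dcn (2) rose, with sums of 880.0 to 1048 in males and 760.1 to 968.9 in females, and Col1a1 and Pdgfra below the filter. Of 8 vessel markers 0 passed (limma; 1 at an unadjusted p under 0.05), with sums of 842.1 to 942.4 in males and 903.8 to 1104 in females, and Cdh5, Tek and Cspg4 below the filter. Of 5 fat markers 0 passed (limma; 0 at an unadjusted p under 0.05), with sums of 402.6 to 876.1 in males and 457.2 to 579.1 in females, and Lep, Cidec and Pparg below the filter. Of 8 thymocyte markers Rag2 (1) fell, with sums of 13784 to 14589 in males and 13914 to 15293 in females. The part of these shifts in the Kcnk2 and Kcnk6 differences was not tested.

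**Figure D5:**
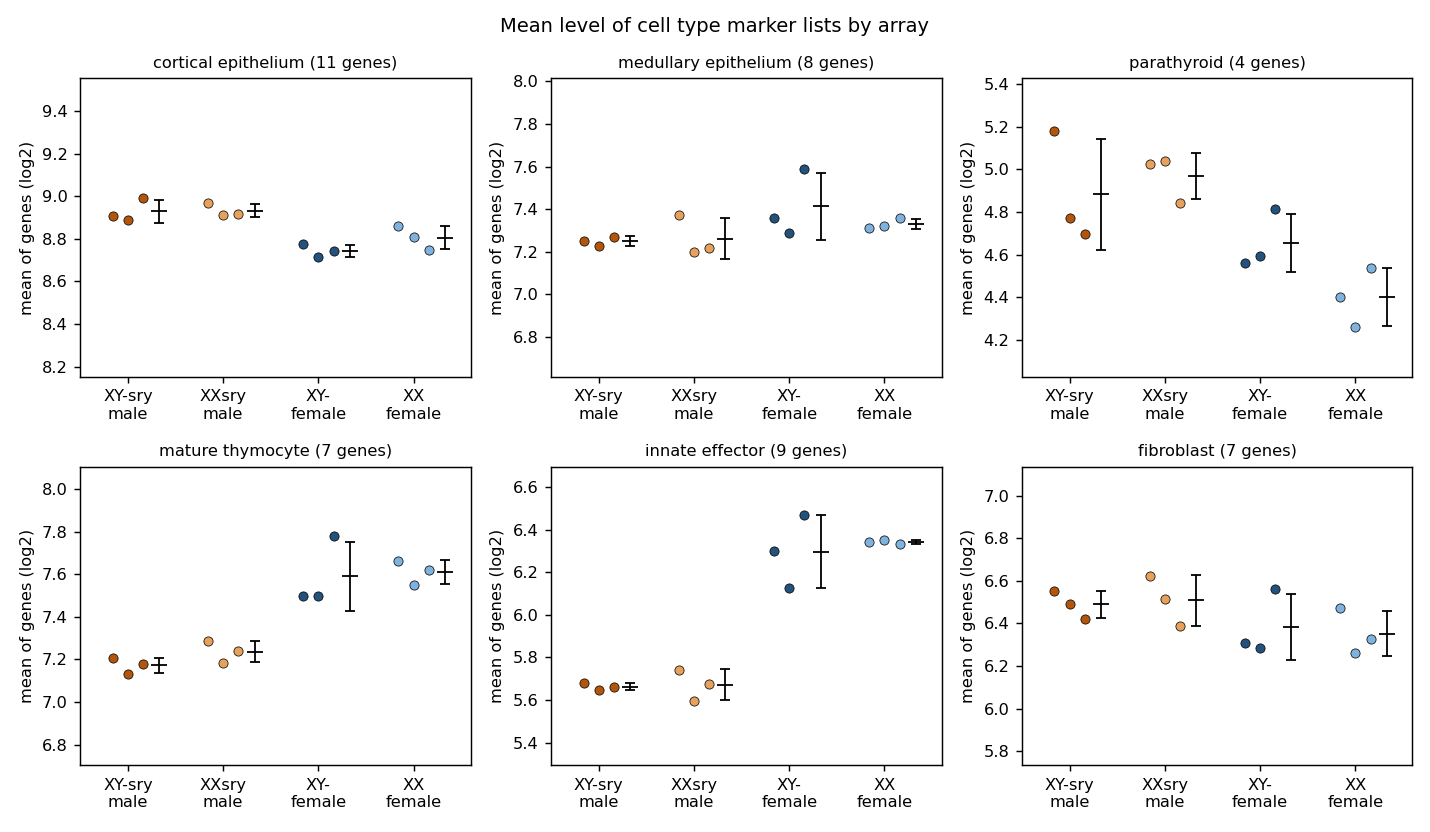
Mean log2 level of 6 marker lists (y axis, the same span in each panel) in each array by group, males left of females; points are arrays and bars are mean ± SD of 3 arrays. The mean of the cortical epithelium markers, which include Isl1, lies narrowly higher in males, at 8.89 to 8.99 against 8.72 to 8.86 in females. Mature thymocyte and innate markers lie lower in every male array than in any female array. The parathyroid panel includes the thyroid gene Tg.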

How the data were processed

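Gene expression was measured on 12 one-colour Affymetrix arrays of thymus RNA, with biotin-labelled cRNA made from 10 µg of total RNA per the labels' protocols. The deposited values are log2 probe set values that the authors made with RMA, per the submitters' processing notes; RMA quantile-normalizes the arrays, so array medians lay between 4.02 and 4.10. No source used here gives the RMA version. Probe sets were named by the platform's gene table, and genes were placed by RefSeq on GRCm38.p6.

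Control probe sets (64) were left out, and 17925 probe sets averaging log2 5 or more across arrays were tested. Group means were fitted with limma 3.58.1 in R 4.3.3 over all 12 arrays (8 residual and 3.71 prior degrees of freedom), with Benjamini-Hochberg adjustment over all tested probe sets and a threshold of 0.05. Members below the filter were fitted without it. Contrasts were males minus females, XY- minus XX complement, each within the levels of the other, XY-sry minus XX, and the interaction. Listed genes were read from whichever of their probe sets was brightest on average. Marker levels were taken both as sums of unlogged values and as means of log2 values.

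Named list genes were those past the threshold in a contrast (up to 5 per list and direction) and the 2 brightest of each list; the genes like Kcnk2 were the 5 nearest. Members and lists were chosen with earlier results of these data known. Alternatives were: leaving the filter out or raising it to 6; centring every array on its median; repeating quantile normalization; weighting arrays by quality; letting the prior variance follow intensity, with robust estimates; testing 1 probe set a gene; fitting the compared groups alone; blocking on replicate number; adding actin 3' minus 5' signal as a covariate; and dropping each array in turn. The fit was tested on simulated data. Figures were drawn with matplotlib 3.10.9. Replicates are biological per the series' design text. Some same-numbered arrays deviated together, and others did not.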

Additional observations from a re-analysis of the deposited data

How the results depend on the processing

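Kcnk2 kept its direction between the sexes under every alternative run. Leaving out 1 array gave 0.86 to 0.94 on average, 0.92 to 1.03 in the XX complement, 0.73 to 0.89 in the XY- complement and 0.79 to 0.90 for XY-sry minus XX. With the actin covariate the difference in the XY- complement was 0.68. Kcnk2 had no value under the filter of 6, which it did not pass. Without 1 array its complement effect was -0.09 to -0.01, -0.0367 to 0.12 in females and -0.21 to -0.07 in males, and its interaction -0.26 to -0.10. The following near-zero complement differences changed sign and passed in neither fit. With array weights the averaged complement effect was 0.0332 for Kcnk2, -0.0543 for Kcnk6 and 0.0686 for Kcnk1, and the Kcnn4 interaction was -2.82e-05. With the actin covariate it was -0.0083 for Kcnk6 on average, 0.0015 for Kcna3 and -0.0048 for Kcnn4 in males, and -0.0738 for the Kcnn4 interaction. With median centring the Kcnn4 difference in females was -0.0233. Leaving out 1 array also turned such signs: Kcnk6 ran from -0.0567 to 0.0633 on average, -0.07 to 0.025 in females, -0.0867 to 0.15 in males and -0.06 to 0.18 for the interaction. Kcna3 ran from -0.16 to 0.05 in males. Kcnn4 ran from -0.0158 to 0.0467 on average, -0.0483 to 0.0417 in females, -0.035 to 0.09 in males and -0.0383 to 0.0867 for the interaction. Kcnk1 ran from -0.085 to 0.13 in females.

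Counts of member probe sets stayed at 0 for the complement and interaction tests under the alternatives run, over the filter's probe sets. Potassium channel and partner genes past the threshold for gonadal sex, 3 in all, were 1 with a filter of 6, 6 with array weights, 5 with the actin covariate and 3 to 4 without 1 array. For XY-sry against XY-, 4 in all, they were 2 without the filter, 1 with a filter of 6, 2 with an intensity trend, 0 with only the groups compared, 0 with the actin covariate and 1 to 4 without 1 array. For XXsry against XX they were 1, with 2 under array weights and 0 to 2 without 1 array. For XY-sry against XX, 2 in all, they were 1 without the filter, 1 with a filter of 6, 1 with the replicate block and 0 to 2 without 1 array. In females the complement gave 1 with array weights in place of 0.

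Calcium entry and ion balance genes for gonadal sex, 2 in all, were 0 without the filter, 1 with a filter of 6, 9 with array weights and 0 to 4 without 1 array. For XY-sry against XY-, 2 in all, they were 1, 1 and 9 under those settings, 0 with only the groups compared, 0 with the actin covariate and 0 to 3 without 1 array. Array weights gave 1 for XXsry against XX, 2 for XY-sry against XX, 1 for the complement in females, 1 in males and 1 for the interaction, each in place of 0. Except that a stricter filter leaves fewer genes to test, the cause of these changes was not tested. Same-numbered arrays of different groups deviated with correlations from -0.08 to 0.31, with 8 of 18 pairs over 0.1. For arrays of different number the correlations ran from -0.33 to 0.25. Of 12 arrays, 8 correlated best with an array of their own number. The replicate block moved the 1 count given above, which cost the call of 1 of the genes past the threshold for XY-sry against XX, and kept the gonadal sex calls of Kcnj15, Kcnq3, Abcc9, Atp2a2 and Stimate and the XY-sry against XY- calls of Kcnma1 and Atp2b1.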
